A study of Mus musculus with 5 samples.

Results

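Divergent promoters were analysed in ChIPseq peak lists of acetylated histones from T_M cells. A divergent promoter is here the interval between and around the starts of a pair of protein-coding genes that lie on opposite strands and point away from each other. In the GENCODE annotation of mouse GRCm38, 754 pairs had 5′ ends 1000 bp or less apart and gene bodies that did not overlap. Each interval ran from 1000 bp left of the left start to 1000 bp right of the right start. The pairs held 1487 of 21938 coding genes, 21 of them in 2 pairs, and 22 intervals overlapped an earlier one. The other 20451 coding genes were scored as single promoters, each 1000 bp on both sides of its 5′ end, so that there were 21205 promoter intervals in all.

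Such a promoter serves both genes from a shared nucleosome-poor stretch of DNA, usually rich in CpG dinucleotides, and is known for pairs of housekeeping genes of DNA repair, mitochondria and RNA handling. RNA polymerase II is loaded at both starts and moves outward on both strands. Acetylation of histone lysines loosens the contact of nucleosomes with DNA and marks the nucleosomes around active starts. The acetyl group comes from acetyl-CoA, which in mitochondria is made from pyruvate by the pyruvate dehydrogenase complex.

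The 5 libraries came from mouse CD8+ T cells, 2 from WT and 3 from TPdh-/- mice. In TPdh-/- mice a floxed Pdha1, the gene of the E1 alpha subunit of pyruvate dehydrogenase, is cut by a Cre under the Cd4 promoter, which deletes it in T cells and leaves other tissues intact. Mice of both sexes were 8 to 12 weeks old, and by the study's methods T cells of the OT-I line, whose receptor recognises an ovalbumin peptide, were stimulated with that peptide and then kept in IL-15 to give T_M cells, so that all 5 libraries share the activation and the IL-15. The antibody is described in the methods as one against acetylated lysine of histones, while the labels name K18. Nothing in the labels says whether the libraries of a genotype came from separate animals, so the p-values below cover the spread between libraries, which may be technical.

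The lists held from 4920 to 15962 peaks, with no read numbers, so the depth of a library is unknown. Of 9 T cell marker genes, 8 and 6 had a promoter peak in the WT libraries and 2, 4 and 6 in TPdh-/- replicates 1, 2 and 3, whereas the 16 markers of B cells, myeloid cells, NK cells and other tissues had none in any list. Pdha1 is not a member, and its promoter had a peak in WT replicate 1 alone, which does not measure the deletion.

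The gap between the starts, whose ends are the bases next to the annotated 5′ ends of both genes, had a median distance of 129.5 bp between starts, from 1 to 987 bp, with quartiles of 67 and 240 bp. Gaps are shown from pairs that the results below turn on: first a pair with a highly ranked peak in all 5 libraries, then 3 pairs of T cell and immune genes, a pair with a gene of DNA repair that had a peak in all 5 libraries, 3 pairs with a peak in WT alone, and last a pair of histone genes with no peak. All are the plus strand of GRCm38 in lower case, with each CpG in capitals.
Tada3/Arpc4, chr6:113377884-113378114: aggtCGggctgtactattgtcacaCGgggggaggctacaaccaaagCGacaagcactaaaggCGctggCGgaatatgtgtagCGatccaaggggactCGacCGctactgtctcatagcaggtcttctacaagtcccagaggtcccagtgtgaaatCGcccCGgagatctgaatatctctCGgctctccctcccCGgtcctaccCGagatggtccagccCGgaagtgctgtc
Plgrkt/Cd274, chr19:29367391-29367454: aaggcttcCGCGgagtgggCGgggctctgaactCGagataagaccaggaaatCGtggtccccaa
Park7/Tnfrsf9, chr4:150914438-150914561: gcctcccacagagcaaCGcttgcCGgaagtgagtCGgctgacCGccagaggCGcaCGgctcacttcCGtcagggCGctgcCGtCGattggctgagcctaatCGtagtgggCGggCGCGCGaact
Wdhd1/Socs4, chr14:47276858-47276930: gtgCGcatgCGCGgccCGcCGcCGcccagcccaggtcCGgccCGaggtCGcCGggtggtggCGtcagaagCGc
Emc3/Fancd2, chr6:113531653-113531681: gtaaCGtcaCGccaCGgCGCGgctttgat
Zfp944/Zfp758, chr17:22361401-22361452: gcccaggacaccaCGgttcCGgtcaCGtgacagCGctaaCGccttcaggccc
Agtpbp1/Naa35, chr13:59585228-59585258: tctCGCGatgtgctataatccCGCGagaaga
Sdha/Ccdc127, chr13:74350281-74350308: attctgCGcctgCGcaacaCGcccctcc
Hist1h2ae/Hist1h2bg, chr13:23571221-23571395: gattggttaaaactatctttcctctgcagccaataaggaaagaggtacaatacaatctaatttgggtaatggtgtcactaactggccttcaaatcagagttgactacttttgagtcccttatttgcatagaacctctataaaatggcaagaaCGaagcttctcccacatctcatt
The gap of Emc3/Fancd2 held 17.2 CpG per 100 bp and that of Wdhd1/Socs4 16.4, against 6.06 in that of Tada3/Arpc4 and 0.571 in that of the histone pair. These single gaps are extremes. Among gaps of 20 bp or more, the median was 6.87 at pairs with no peak and 8.41 at pairs with a peak in all 5 libraries.

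Divergent promoters carried a peak more often than single promoters in every library. An interval was scored as called in a library where a peak of that list shared at least 1 bp with it. A pair interval holds 2 starts and a single promoter 1, so a pair could be called from either start. In WT replicate 1, 594 of the 754 pairs were called, or 78.8%, against 33.1% of single promoters and 34.8% of all promoter intervals. WT replicate 2 had 349 called pairs or 46.3%, against 18.4% of single promoters and 19.4% of all. TPdh-/- replicates 1 and 2 were alike, with 207 pairs (27.5%) and 220 pairs (29.2%) against 11.6% and 12.7% of single promoters and 12.1% and 13.3% of all. TPdh-/- replicate 3 stood above WT replicate 2, with 387 pairs or 51.3%, against 21.4% of single promoters and 22.5% of all.

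**Figure D1:**
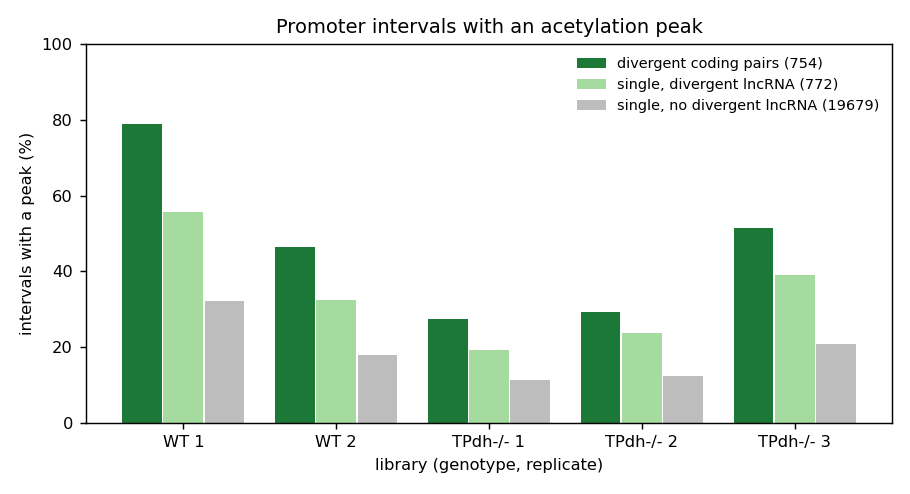
Percent of promoter intervals with a peak (y axis, from 0) in each of the 5 libraries (x axis), for the 754 divergent coding pairs, for 772 single promoters with a divergent long noncoding RNA and for the other 19679 single promoters. The pairs stand highest in all 5 libraries, from 27.5% in TPdh-/- replicate 1 to 78.8% in WT replicate 1, and the bars have no error because each is 1 library.

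The difference between pairs and single promoters was 45.6 and 27.8 percentage points in the WT libraries and 15.9, 16.4 and 29.9 points in TPdh-/- replicates 1, 2 and 3. Its mean was 27.1 ± 12.2 points (SD, n = 5), with pairs higher in 5 of 5 libraries (exact permutation test by sign flips, two-sided, p = 0.0625, the smallest that 5 libraries allow). The ratio of the 2 shares moved far less between lists than the difference did. WT gave 2.38 and 2.51 and TPdh-/- gave 2.37, 2.29 and 2.40, while the lists differed in length by over 3 times. The pairs took a like part of every list, from 3.60% to 4.07% of its peaks. With each of the 1487 genes of the pairs scored in its own window, the mean difference was 26.9 points. Since 1 peak can call both genes of a pair, the part that holding 2 starts has in the difference was not tested.

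WT and TPdh-/- were then compared at the pairs. WT had 62.5% ± 23.0 of pairs called (SD, n = 2) and TPdh-/- 36.0% ± 13.3 (SD, n = 3), a difference of 26.5 points (exact permutation test over 10 splits, two-sided, p = 0.4, where the smallest possible is 0.2). The groups overlapped, since TPdh-/- replicate 3 lay above WT replicate 2. Single promoters gave 25.8% ± 10.4 (SD, n = 2) and 15.2% ± 5.36 (SD, n = 3). The excess of pairs over single promoters was 16.0 points larger in WT (exact permutation test, two-sided, p = 0.4), but as a ratio WT had 2.44 ± 0.0932 (SD, n = 2) and TPdh-/- 2.35 ± 0.0577 (SD, n = 3), which overlapped (exact permutation test, two-sided, p = 0.4). As a log2 odds ratio WT had 2.42 ± 0.69 (SD, n = 2) and TPdh-/- 1.66 ± 0.26 (SD, n = 3), a difference of 0.76 (exact permutation test, two-sided, p = 0.4). List length moved with these shares: with each list reduced to its 4920 strongest peaks, pairs were called at 40.1% and 33.0% in WT and 27.5%, 28.2% and 37.0% in TPdh-/- replicates 1, 2 and 3, and the difference between genotypes was 5.64 points. Leaving out WT replicate 1 brought the difference to 10.3 points and leaving out WT replicate 2 to 42.8. The part of read depth in these differences was not tested.

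CpG number differed between pairs and single promoters, and the pairs were called more often within the CpG classes that held nearly all of them. The median was 4.57 CpG per 100 bp in pairs and 2.85 in single promoters. When all promoter intervals were placed in 5 classes of equal size by CpG number, 6 and 23 pairs fell in the lower 2 classes and 158, 323 and 244 in the upper 3. In the highest class, which starts at 5.30 CpG per 100 bp, 83.2% of pairs and 54.6% of single promoters were called in WT replicate 1, and 34.4% and 21.8% in TPdh-/- replicate 1. In the 29 pairs of the lower 2 classes, 26 had no peak in any library. Averaged over the classes with the pairs as weights, the difference was 26.9 and 17.4 points in the WT libraries and 8.94, 8.83 and 17.3 points in TPdh-/- replicates 1, 2 and 3. This mean of 15.9 points, higher in 5 of 5 libraries (exact permutation test, two-sided, p = 0.0625), stands beside 27.1 points without the classes.

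**Figure D2:**
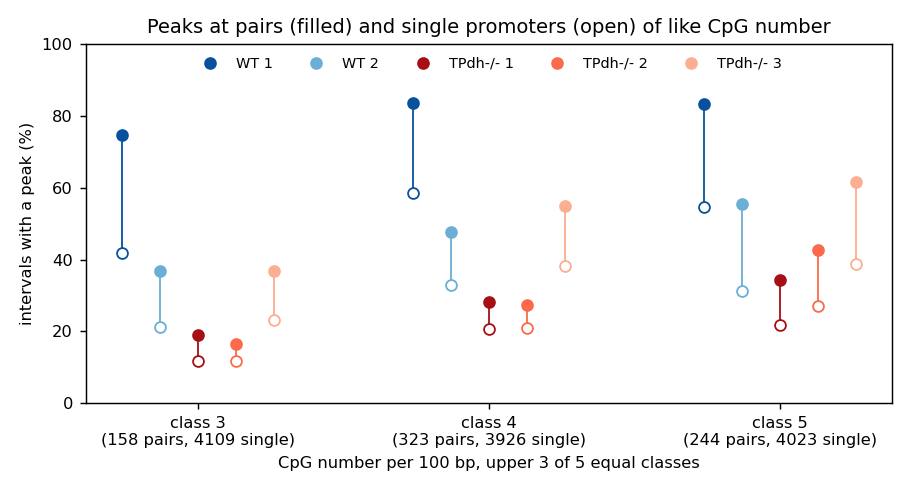
Percent of intervals with a peak (y axis) for pairs (filled points) and single promoters (open points) within the upper 3 of 5 classes of CpG number per 100 bp (x axis), 1 colour per library, joined by a line within a library. In all 3 classes and all 5 libraries the pairs stand above the single promoters, by the least in TPdh-/- replicate 2 of class 3, with 16.5% against 11.7%.

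Single promoters that have a long noncoding RNA instead of a coding gene on the other side, 5′ ends at most 1000 bp apart, were set beside the pairs after the values of the pairs had been seen. There were 772 of them, with a median of 4.90 CpG per 100 bp, close to that of the pairs. They were called at 55.6% and 32.5% in WT and at 19.2%, 23.8% and 39.0% in TPdh-/- replicates 1, 2 and 3. In each library this lay between the pairs and the single promoters that had no such RNA, of which 11.3% to 32.3% were called. The lncRNA class was not tested against the pairs.

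Across libraries the calls at pairs were largely nested. At least 1 list had a peak at 599 pairs, and no list at 155, or 20.6%, against 66.0% of single promoters and 64.3% of all promoter intervals. All 5 libraries had a peak at 150 pairs, or 19.9%, against 8.24% of single promoters and 8.65% of all. Among intervals with any peak the share called in all 5 was 25.0% of pairs and 24.2% of single promoters, so this count differed little once an interval had a peak. Both WT libraries and no TPdh-/- library had a peak at 35 pairs, or 4.64%, against 1.59% of single promoters and 1.7% of all. Among intervals with any peak this pattern made up 5.84% of pairs and 4.67% of single promoters. No pair had a peak in all 3 TPdh-/- libraries and none in WT, and 0% of all promoter intervals did. WT replicate 1 alone accounted for 160 pairs, or 21.2% against 9.49% of single promoters. Among intervals with any peak these shares were 26.7% and 27.9%. With no WT call, 4 pairs were called in TPdh-/-, or 0.531% against 0.627% of all promoter intervals, all of them in TPdh-/- replicate 3 alone. The count of pairs called in WT alone rested on single libraries: it was 109 without TPdh-/- replicate 3 and 195 without WT replicate 2.

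**Figure D3:**
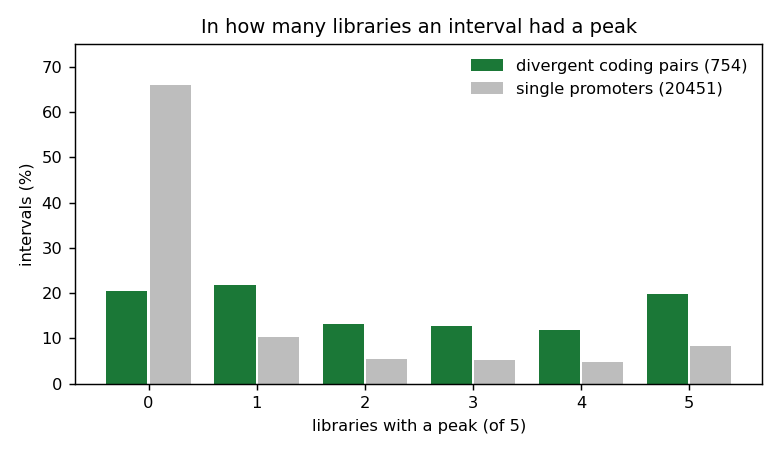
Percent of intervals (y axis, from 0) by the number of libraries with a peak, from 0 to 5 (x axis), for the 754 pairs and the 20451 single promoters. The pairs have fewer intervals at 0 libraries, 20.6% against 66.0%, and more at every number from 1 to 5.

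The rank of a peak in WT moved with the number of TPdh-/- lists that shared it. Strength is given as the percentile of a peak's −log10 q among the peaks of its own list, since q depends on depth. In WT replicate 1 the median percentile was 46.1 at the 195 pairs with no TPdh-/- peak, 66.5 at the 144 pairs with a peak in 1 TPdh-/- library, 81.2 at 99 pairs with 2 and 91.3 at 156 pairs with all 3. WT replicate 2 had the same order, from 25.8 at 36 pairs with no TPdh-/- peak to 83.1 at 150 pairs with all 3. Single promoters had the same order as well, from 43.2 to 89.0 in WT replicate 1. CpG number rose along the same line, from a median of 4.01 per 100 bp at pairs with no peak to 5.15 at pairs called in all 5 libraries.

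Where both kinds of promoter were called, the peaks at pairs ranked a few percentile points higher. The median percentile was 70.6 at pairs and 67.4 at single promoters in WT replicate 1, and 66.4 against 63.9 in the other WT list. TPdh-/- gave 66.5 against 62.3 in replicate 1, 65.1 against 64.8 in replicate 2, and 69.2 against 64.9 in replicate 3. The mean difference was 2.90 ± 1.63 percentile points (SD, n = 5; pairs higher in 5 of 5 libraries, exact permutation test, two-sided, p = 0.0625), and 1.45 within CpG classes, where TPdh-/- replicate 2 stood at -0.123 (exact permutation test, two-sided, p = 0.125). Median fold enrichment over the background that the peak caller estimated was 2.91 to 3.00 at pairs and 2.78 to 2.88 at single promoters.

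Averaged over intervals, coverage at pairs was near even to the left and right of the gap, while at single promoters it leaned into the gene. Left and right are set by the chromosome and not by the genes, so an even mean can hide pairs that lean to either side. In WT replicate 1, 65.6% of pairs were covered at the midpoint of the starts, 55.3% at 500 bp to the left and 54.0% at 500 bp to the right. In TPdh-/- replicate 1 these were 19.2%, 11.8% and 12.6%. Single promoters in WT replicate 1 were covered at 25.4% of starts, at 13.9% of positions 500 bp upstream and at 25.1% of positions 500 bp downstream, and in TPdh-/- replicate 1 at 7.19%, 3.43% and 7.11%. Coverage of single promoters was highest 200 or 250 bp downstream of the start in all 5 libraries.

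**Figure D4:**
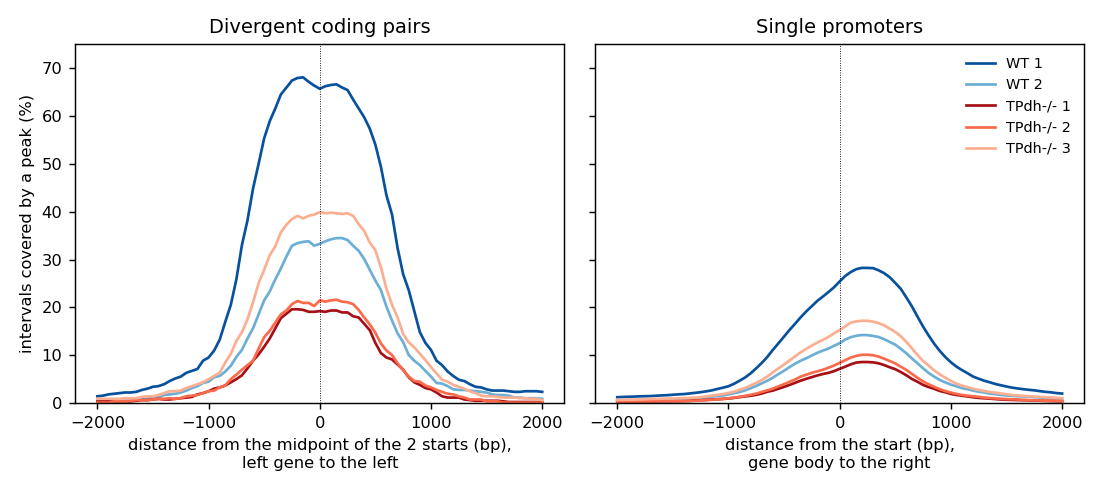
Percent of intervals covered by a peak (y axis) against the distance in bp (x axis) from the midpoint of both starts for pairs (left panel, left gene to the left) and from the start for single promoters (right panel, gene body to the right), 1 line per library. The mean over pairs is about even on both sides, though single pairs lean to one side, and the single promoters are covered most at 200 or 250 bp inside the gene.

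Called pairs also had a slightly longer covered stretch. Within 1000 bp of the centre the median was 1204 bp at pairs and 1060.5 bp at single promoters in WT replicate 1, and 913 and 900 bp in WT replicate 2. In TPdh-/- replicates 1 to 3 it was 813, 880 and 988 bp at pairs and 776, 839 and 944 bp at single promoters. The mean difference was 55.7 ± 50.6 bp (SD, n = 5; 5 of 5 libraries, exact permutation test, two-sided, p = 0.0625), of which WT replicate 1 gave the most: without it the mean was 33.8 bp. With only peaks of −log10 q of at least 5 the mean difference was 4.20 bp (exact permutation test, two-sided, p = 0.9375), and pairs had the shorter stretch in WT replicate 2 and TPdh-/- replicates 1 and 3.

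Most called pairs had 1 peak that covered bases beyond both starts. This was so at 78.3% and 66.2% of called pairs in WT and at 61.8%, 64.1% and 70.0% in TPdh-/- replicates 1, 2 and 3. No pair and no single promoter held 2 peaks in any library, and the smallest gap between neighbouring peaks of a list was 2102 to 2354 bp, so that 2 separate acetylated stretches at a pair could not have been seen as such. Coverage of a single pair was often uneven: 21.5% to 38.2% of called pairs were covered beyond 1 start alone, and at 44.6% to 66.2% the shorter side had less than 0.5 times the covered bases of the longer. The longer of both sides had a median of 704 bp covered in WT replicate 1 and the shorter 380 bp, and in TPdh-/- replicate 1 these were 565 and 154 bp. Both sides were covered less often where the starts lay farther apart: for starts 1 to 100 bp apart 87.1% of called pairs in WT replicate 1 and 66.7% in TPdh-/- replicate 1, and for starts over 600 bp apart 44.1% of 34 and 27.3% of 11 called pairs.

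The side that was covered more was the same from library to library. For pairs called in both of 2 libraries with a difference of at least 200 bp between the sides in each, the same side was the longer one at 176 of 183 pairs between the WT libraries, at 91 of 91 between TPdh-/- replicates 1 and 2, and at 95.7% to 100% over all 10 combinations of libraries. Peak lists of 1 cell type share this, so the 10 values are not independent.

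Within the pairs, the share called did not fall steadily with the distance between starts, and was lowest in the widest class. In WT replicate 1 it was 82.1% of 312 pairs at 1 to 100 bp, 76.8% of 306 pairs above that and up to 300 bp, 81.2% of 85 pairs up to 600 bp and 66.7% of 51 pairs up to 1000 bp. In TPdh-/- replicate 1 these were 27.9%, 26.1%, 34.1% and 21.6%. At the limit of the rule, the 20 pairs just inside, 759 to 987 bp apart, had 12 and 8 calls in WT and 4, 6 and 11 in TPdh-/- replicates 1, 2 and 3, and the 20 pairs just outside, 1007 to 1199 bp apart, had 15 and 9, and 8, 5 and 11. On chromosome X there were 20 pairs, of which 8 and 4 were called in WT and 0, 0 and 3 in TPdh-/-. On autosomes 79.8% and 47.0% of 734 pairs were called in WT and 28.2%, 30.0% and 52.3% in TPdh-/-, above chromosome X in each library, where 40% was the highest share. Single promoters of chromosome X were not counted apart, so the lower share there is not shown to be particular to pairs.

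Short motifs were counted in the 300 bp around the centre of each interval on both strands. GGGCGG, the core bound by SP1, was in 68.0% of pairs, 43.8% of single promoters and 44.7% of all promoter intervals. GGAAG, the core of ETS factors, was in 77.7%, 71.8% and 72.0%, and CCAAT, the box bound by NFY, in 45.1%, 36.2% and 36.5%. GCGCATGC, a site of NRF1, a regulator of nuclear genes of mitochondria, was in 6.50%, 3.03% and 3.15%. TATAAA ran the other way, with 4.38%, 11.2% and 10.9%. Among the pairs, those with GGAAG were called more often than those without it in each library, at 81.6% against 69.0% in WT replicate 1 and 30.4% against 17.3% in TPdh-/- replicate 1. Pairs with CCAAT were called less often than those without it in each library, at 75.9% against 81.2% in WT replicate 1 and 25.6% against 29.0% in TPdh-/- replicate 1. Those with GGGCGG were called less often in 4 of 5 libraries, with WT replicate 1 the exception at 79.7% against 76.8%. For GCGCATGC and TATAAA, in 49 and 33 pairs, the direction differed between libraries. A match is a description of the letters, not a bound site.

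Pairs are named below by their rank or by lists of gene function, and an interval is given by the percentile of its peak in each list. The lists of gene function were made from gene symbols, so they leave out genes of like function under other names. The pair called in all 5 libraries with the highest percentile was Hjurp/Trpm8 on chromosome 1, with starts at 88277633 and 88277661. Hjurp loads the centromeric histone CENP-A and Trpm8 is a cold-sensing ion channel. Its peak stood at 99.9 and 99.9 in WT and 99.7, 99.8 and 99.9 in TPdh-/- replicates 1, 2 and 3. Its fold enrichment, 2.59 to 2.86, was below the median of called pairs in each library, and how uniquely reads map there was not checked. Covered bases lay mostly on the side of Hjurp, with 979 bp there and 32 bp beyond the start of Trpm8 in WT replicate 2.

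Tada3/Arpc4 came next, with percentiles of 99.2 and 99.7 in WT and 99.2, 99.2 and 98.5 in TPdh-/-. Tada3 is a subunit of histone acetyltransferase complexes, and Arpc4 belongs to the Arp2/3 complex that branches actin. Both sides were covered in all 5 libraries, 398 and 442 bp in WT replicate 2. Pdcd10/Serpini1 was covered on the side of Pdcd10, a gene of blood vessel integrity, alone in all 5 libraries, with 1001 bp there in WT replicate 1 and 0 bp beyond the start of Serpini1, the gene of the neuronal inhibitor neuroserpin. Cdc27/Myl4 was covered beyond the start of Cdc27, a subunit of the anaphase-promoting complex, in all 5 libraries. Beyond the start of Myl4, which encodes an atrial myosin light chain, it had 0 bp in 4 libraries and 78 bp in TPdh-/- replicate 3. Mrto4, a factor of ribosome assembly, pairs with both Emc1 and Ubr4 at the same peak, at percentiles of 99.8 and 98.4 in WT and 98.3, 95.4 and 95.4 in TPdh-/-.

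Of the 35 pairs called in both WT libraries and in no TPdh-/- library, the highest in WT were Zfp944/Zfp758 and Agtpbp1/Naa35. Zfp944/Zfp758, a pair of zinc finger genes, stood at 82.7 in WT replicate 1 and 85.1 in WT replicate 2. Agtpbp1, which trims glutamate from tubulin, and Naa35, a subunit of an N-terminal acetyltransferase, shared a peak at 66.6 and 87.3 that covered the side of Agtpbp1 alone. Gtf3c4/Ddx31, a factor of RNA polymerase III and an RNA helicase, was at 82.1 and 53.4. Cd3eap/Ppp1r13l was at 79.8 and 54.8, where Cd3eap encodes a subunit of RNA polymerase I despite its name. Sdha/Ccdc127 was at 73.7 and 50.5, with 650 and 405 bp covered beyond the starts in WT replicate 1, and Sdha is the catalytic subunit of succinate dehydrogenase. Eif2b1/Gtf2h3, a subunit of a translation initiation factor and one of TFIIH, was at 71.7 and 51.9. None of these 6 pairs had its WT peaks among the top 10% of either list. With lists of equal length 7 pairs, not 35, had a peak in both WT libraries and in none of TPdh-/-.

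**Figure D5:**
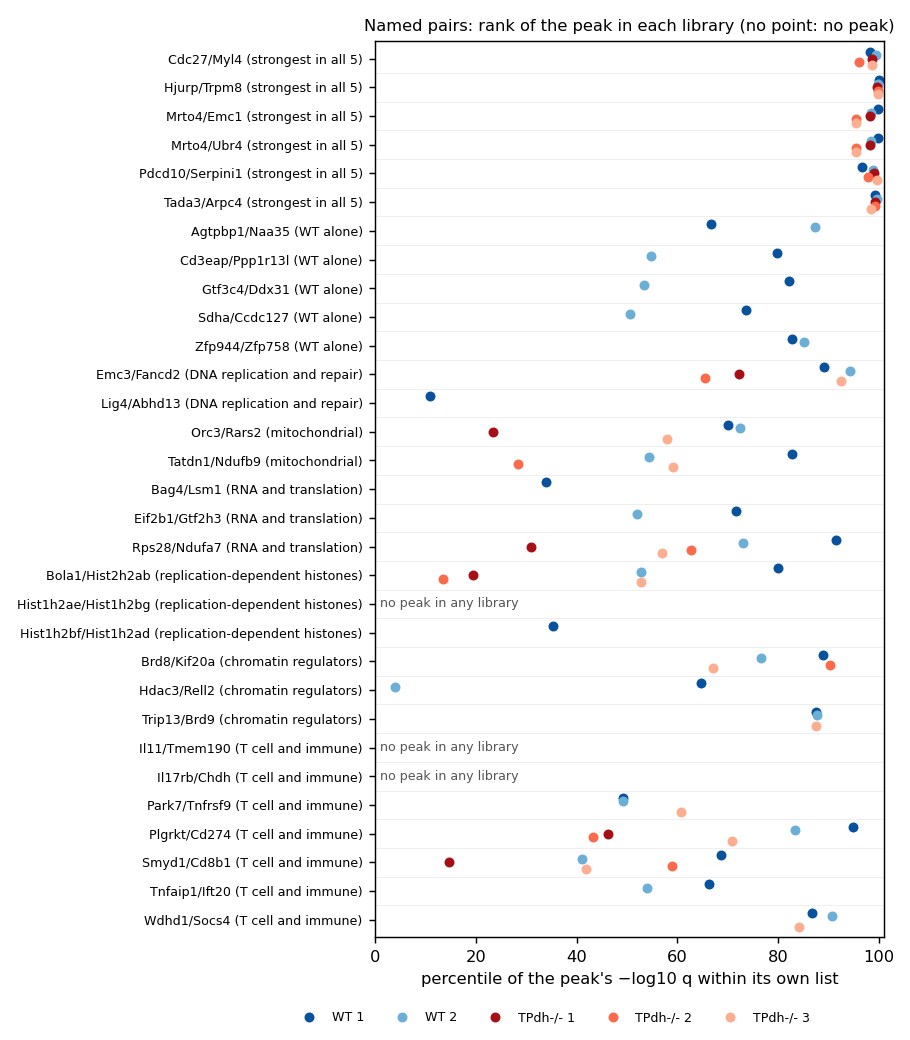
Percentile of the peak's −log10 q within its own list (x axis) at each named pair (y axis), 1 colour per library, where a missing point is a library without a peak. The 6 pairs of highest percentile lie above 95 in all 5 libraries, and pairs of WT alone have 2 blue points and no red ones; a pair named by 2 rules is shown once.

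Pairs of DNA replication and repair genes were called about as often as all pairs. Of 37, the WT lists had 30 and 17, or 81.1% and 45.9% against 78.8% and 46.3% of all pairs. TPdh-/- replicates 1, 2 and 3 had 11, 9 and 19, or 29.7%, 24.3% and 51.4% against 27.5%, 29.2% and 51.3%. In all 5 libraries 6 were called (16.2%, against 19.9% of all pairs). Emc3/Fancd2, where Fancd2 acts in the repair of DNA crosslinks, was called in all 5 at 89.2 and 94.3 in WT and 72.3, 65.4 and 92.6 in TPdh-/-. Orc3/Rars2, a subunit of the origin recognition complex and the mitochondrial arginyl-tRNA synthetase, had no peak in TPdh-/- replicate 2 and stood at 70.0, 72.4, 23.3 and 58.0 in the others. Lig4/Abhd13, with the DNA ligase of end joining, had a peak in WT replicate 1 alone, at 10.9.

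Of 50 pairs with a mitochondrial gene, some of which, such as Orc3/Rars2, are also in another list, 44 and 26 were called in WT and 15, 14 and 25 in TPdh-/-, with 8 in all 5 libraries and 6 in none (16.0% in all 5, against 19.9% of all pairs). The shares called in WT were 88.0% and 52.0%, against 78.8% and 46.3% of all pairs. In TPdh-/- replicates 1, 2 and 3 they were 30.0%, 28.0% and 50.0% against 27.5%, 29.2% and 51.3%. Rps28/Ndufa7, a ribosomal protein and a subunit of complex I, was called in all 5, at 91.6 and 73.0 in WT and 30.9, 62.6 and 56.8 in TPdh-/-. Tatdn1/Ndufb9, with another subunit of complex I, lacked a peak in TPdh-/- replicate 1 and stood at 82.7 and 54.3 in WT.

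Of 51 pairs with a gene of RNA handling and translation, among them Rps6kb1/Tubd1 with a kinase of ribosomal protein S6, 44 and 32 were called in WT, or 86.3% and 62.7% against 78.8% and 46.3% of all pairs. TPdh-/- had 16, 19 and 33, or 31.4%, 37.3% and 64.7% against 27.5%, 29.2% and 51.3%. Calls in all 5 libraries were made at 14 of them, or 27.5% against 19.9% of all pairs. In both WT libraries and no TPdh-/- library 5 of the 51 were called, against 35 of all 754 pairs, or 4.64%. Bag4/Lsm1, whose starts are 1 bp apart and where Lsm1 acts in decay of mRNA, had a peak in WT replicate 1 alone, at 34.0.

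Replication-dependent histone genes, which encode the core histones of S phase, made up 14 pairs. Of these 8 and 5 were called in WT, or 57.1% and 35.7% against 78.8% and 46.3% of all pairs. TPdh-/- had 4, 4 and 5, or 28.6%, 28.6% and 35.7% against 27.5%, 29.2% and 51.3%, and 4 were called in all 5 libraries (28.6%, against 19.9%). These genes are nearly identical copies and only uniquely mapping reads were kept, so their calls are uncertain. Of the 4 pairs, Bola1/Hist2h2ab and its neighbour Hist2h2ac/Hist2h2be, named after its values were seen, lay under 1 and the same peak in each library. Bola1/Hist2h2ab was called in all 5, at 80.0 and 52.7 in WT and 19.3, 13.5 and 52.7 in TPdh-/-, with all 1001 bp on the side of the histone gene covered each time. Hist1h2bf/Hist1h2ad had a peak in WT replicate 1 alone, at 35.3, and Hist1h2ae/Hist1h2bg had none. The gap of Hist1h2ae/Hist1h2bg shown above holds CCAAT and TATAAA and 1 CpG.

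The list of chromatin regulators, made by gene symbol, took 6 pairs. It left out Tada3/Arpc4, called in all 5 libraries, and Tada2a/Acaca, called in none. All 6 listed pairs had a peak in WT replicate 1, against 78.8% of all pairs. WT replicate 2 had 5, or 83.3% against 46.3% of all pairs. TPdh-/- replicates 1, 2 and 3 had 2, 3 and 4, or 33.3%, 50.0% and 66.7% against 27.5%, 29.2% and 51.3%. Brd8/Kif20a, a bromodomain protein and a mitotic kinesin, lacked a peak in TPdh-/- replicate 1 and stood at 88.8 and 76.6 in WT and 90.2 and 67.1 in TPdh-/- replicates 2 and 3. Trip13/Brd9, a spindle checkpoint ATPase and a bromodomain protein of the BAF complex, stood at 87.6 and 87.8 in WT and 87.6 in TPdh-/- replicate 3, with no peak in the other two TPdh-/- libraries. Hdac3/Rell2, with the histone deacetylase Hdac3, was called in WT alone, at 64.8 and 3.84.

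The list of T cell and immune genes took 7 pairs by gene symbol, among them Tnfaip1/Ift20 by the name of Tnfaip1, and is not complete. Of the 7, 5 and 5 were called in WT, or 71.4% each against 78.8% and 46.3% of all pairs. TPdh-/- had 2, 2 and 4, or 28.6%, 28.6% and 57.1% against 27.5%, 29.2% and 51.3%. Plgrkt/Cd274 was called in all 5 libraries, at 94.8 and 83.4 in WT and 46.2, 43.2 and 70.9 in TPdh-/-. Cd274 encodes PD-L1, the ligand of the inhibitory receptor PD-1, and Plgrkt a plasminogen receptor. The covered bases lay on the side of Plgrkt, 733 to 973 bp, and beyond the start of Cd274 there were 139 bp in WT replicate 1 and 0 in the other 4 libraries.

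Smyd1/Cd8b1 was called in all 5 as well, at 68.7 and 41.0 in WT and 14.6, 59.0 and 41.8 in TPdh-/-. Cd8b1 encodes the beta chain of the CD8 co-receptor, and Smyd1 a methyltransferase of muscle. The starts are 555 bp apart, and the side of Cd8b1 had 729 to 957 bp covered, against 0 to 448 bp on the side of Smyd1, so that the side of the T cell gene was the longer one in each library.

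Park7/Tnfrsf9 had peaks at 49.1 and 49.2 in WT and at 60.8 in TPdh-/- replicate 3. Tnfrsf9 encodes the costimulatory receptor 4-1BB, and its side was the longer one in all 3 libraries, with 710 to 1001 bp. Wdhd1/Socs4, a DNA replication factor and a suppressor of cytokine signalling, stood at 86.8 and 90.7 in WT and 84.1 in TPdh-/- replicate 3, with no peak in TPdh-/- replicates 1 and 2. Tnfaip1/Ift20 was called in both WT libraries alone, at 66.2 and 54.0. Il11/Tmem190 and Il17rb/Chdh had no peak in any library. The pattern of Park7/Tnfrsf9 and Wdhd1/Socs4, with peaks in both WT libraries and in TPdh-/- replicate 3 alone of its genotype, was that of 74 pairs in all, or 9.81%. The same pattern was found at 3.53% of single promoters, which were called less often than pairs in every library.

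Of the 155 pairs with no peak in any list, the closest starts were those of Bag5/Apopt1, 4 bp apart with 7.98 CpG per 100 bp, Wdr54/1700003E16Rik at 7 bp, Calr3/1700030K09Rik at 10 bp and Nudt22/Trpt1 at 14 bp. Bag5 is a co-chaperone of Hsp70, Calr3 a calreticulin of testis and Trpt1 an enzyme of tRNA splicing. A pair without a peak is one where the caller listed none at the depth of that library, and acetylation below that level was not detectable here.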

How the data were processed

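ChIPseq peak lists of 2 WT and 3 TPdh-/- libraries were used. The authors aligned reads to GRCm38/mm10 (BWA 0.7.17), discarded reads with several matches and those in blacklisted regions (SAMtools 1.15.1), and called broad peaks for each library separately (MACS2 2.2.6). The joining distance and an input control are not given in the sources used here. The deposited lists give each peak a fold enrichment, a linear ratio over the background that MACS2 estimated, and −log10 p and −log10 q, which the authors' caller computed. Depth is unknown, since the lists hold no read numbers, so no counting intervals are given.

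Pairs and single promoters were taken from GENCODE vM21 gene models and scored with Python 3.11.15, numpy 2.4.6 and pandas 2.3.3. Overlaps were checked against bedtools 2.31.1 and tested on simulated data, where all 297 pairs given a peak were recovered. That checks the overlap step alone and says nothing of the peak calls or the comparisons. CpG and motifs were counted in the GRCm38 sequence. Pairs and single promoters were compared by exact sign flips over 5 libraries, and genotypes by the 10 splits into 2 and 3 libraries, with the smaller tail doubled for a two-sided p. The libraries, not the promoters, were the replicates. The members, the gene lists and the naming rule were chosen with earlier results of these data known. Named pairs are the 6 strongest in all 5 libraries, the 6 strongest in WT alone, any of TPdh-/- alone, the 4 closest without a peak, the 3 closest of each list and all immune pairs, passing over pairs with unnamed genes on both sides. The single promoters with a divergent lncRNA, the profiles and the counts by side and distance were added after values had been seen. Alternatives were other q limits, list lengths, overlaps, distances, promoter sets and CpG classes, and leaving out each library. The authors' differential analysis starts from reads and was not repeated.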

Additional observations from a re-analysis of the deposited data

How the results depend on the processing

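No alternative reversed the direction of a mean difference, and no test could pass 0.05 at this number of libraries. With peaks of −log10 q of at least 5, the mean difference between pairs and single promoters was 12.5 points, the difference in covered width 4.20 bp (below 0 in 3 of 5 libraries, at -67.5 bp for TPdh-/- replicate 1, -40.5 bp for WT replicate 2 and -23 bp for TPdh-/- replicate 3), the number of pairs called in all 5 libraries 25 and the number called in both WT and no TPdh-/- library 23. For WT replicate 2 the difference in covered width was also below 0 at −log10 q of at least 2 (-5 bp) and with lists of equal length (-16 bp), and within CpG classes the percentile difference of TPdh-/- replicate 2 was -0.123. With lists of equal length, the WT minus TPdh-/- difference in the share of pairs was 5.64 points, that in the excess over single promoters 4.12 points, and 7 pairs were called in both WT libraries alone. Leaving out 1 library at a time gave 22.5 to 30.0 points for pairs minus single promoters, 10.3 to 42.8 points for WT minus TPdh-/- (lowest without WT replicate 1, highest without WT replicate 2), 7.09 to 24.9 points for the excess, 2.55 to 3.55 percentile points, 33.8 to 66.4 bp of covered width, 150 to 193 pairs called in all 4 remaining lists, 36 to 195 pairs in WT alone and 65.5% to 69.6% covered on both sides. With the replicate number as a replicate block, without TPdh-/- replicate 3, the share of pairs differed by 34.2 points between genotypes and the excess by 20.6 points, while pairs minus single promoters gave 2.55 percentile points and 58.6 bp of covered width over those 4 libraries. The numbers are not stated to pair the samples, and peak lists allow no blocked fit across reads. Other settings moved each value by less than the spread between libraries, or a count by less than 1.5 times. The lists do not resolve acetylation below the limit of the caller or stretches closer than about the width of an interval.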
